A study of Mus musculus with 14 samples.

Results

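Transcription factors that set the identity of prostate epithelium and of its secretory cells were followed across fetal and adult mouse prostate. The set holds 7 genes chosen by name: the forkhead factors *Foxa1* and *Foxa2*, the ETS factors *Spdef*, *Ehf* and *Elf3*, the membrane-bound bZIP factor *Creb3l4* and the zinc finger factor *Gata3*. They are 7 of the 17149 genes that the array names and that passed a signal filter, and they are read by 10 of the 45101 probe sets on it. *Ehf* has 4 probe sets and each other member has 1. All 7 genes and all 10 probe sets passed the filter of a signal above 20 on at least 1 array. Where a gene has several probe sets, the one of highest mean log2 signal stands for it and the others are given too.

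RNA of 14 samples was hybridized, each to its own Affymetrix MOE430 2.0 array. UGE, the urogenital sinus epithelium from which the prostate grows, came from 16-day C57BL/6 embryos and gave 3 arrays. The other samples were cells of the proximal prostatic ducts of male mice, C57BL of 6 to 8 weeks by the labels and C57BL/6 of 6 weeks by the methods, sorted by flow cytometry on the surface antigen Sca-1 into Sca-1Hi (3 arrays), Sca-1Lo (4 arrays) and Sca-1Neg (4 arrays). By earlier work of the group, Sca-1Hi is enriched in adult stem cells, Sca-1Lo in transit-amplifying cells, and Sca-1Neg holds differentiated cells. The labels name no transgene or treatment, and each sample pools many cells. The methods describe the UGE as isolated, with no sort, and the labels do not say whether samples of a population came from separate mice.

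FOXA factors open chromatin at sites where other transcription factors then bind, and *Foxa1* marks most prostate epithelium, while *Foxa2* is known from fetal prostate buds and neuroendocrine cells. *Spdef* and *Creb3l4* are known from secretory epithelium: *Spdef* drives goblet cell differentiation in the gut and airway, and *Creb3l4* is cut from the endoplasmic reticulum membrane to reach the nucleus. *Gata3* is needed for luminal fate in several glands, and *Ehf* and *Elf3* are ETS factors largely limited to epithelia.

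The sequences shown are the 250 bases upstream of the annotated start, 5′ to 3′ on the gene's own strand, for the forkhead pair, of which *Foxa2* was read in fetal cells alone, and for *Spdef* and *Creb3l4*, which varied together over the adult arrays. They are RefSeq sequences of GRCm38.p6, and all lie on the minus strand. Capitals mark a match, on either strand, to one of 4 short motifs, which were TGTTTAC for forkhead factors, the letters AGATAA for zinc finger factors of the *Gata3* family, the core CCGGAAG for ETS factors and, for bZIP factors, the cyclic AMP response element with the letters TGACGT. The *Foxa1* window is chr12:57546112-57546361 and that of *Spdef* is chr17:27728952-27729201. For *Foxa2* and *Creb3l4*, which have 3 starts each, the window of the start farthest upstream is shown, at chr2:148046970-148047219 and chr3:90243513-90243762.
Foxa1: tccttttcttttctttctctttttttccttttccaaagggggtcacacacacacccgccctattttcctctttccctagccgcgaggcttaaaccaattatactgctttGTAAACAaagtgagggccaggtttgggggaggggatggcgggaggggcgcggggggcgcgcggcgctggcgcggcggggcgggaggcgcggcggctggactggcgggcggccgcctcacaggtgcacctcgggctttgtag
Foxa2: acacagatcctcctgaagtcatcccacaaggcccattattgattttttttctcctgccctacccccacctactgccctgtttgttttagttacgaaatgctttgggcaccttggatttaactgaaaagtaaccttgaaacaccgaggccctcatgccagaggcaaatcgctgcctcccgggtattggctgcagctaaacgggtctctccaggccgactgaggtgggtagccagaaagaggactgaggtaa
Spdef: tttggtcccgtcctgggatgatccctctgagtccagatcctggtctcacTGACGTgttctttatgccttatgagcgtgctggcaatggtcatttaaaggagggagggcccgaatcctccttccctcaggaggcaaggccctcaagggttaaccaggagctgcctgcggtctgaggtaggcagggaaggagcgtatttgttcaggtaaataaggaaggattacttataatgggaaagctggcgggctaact
Creb3l4: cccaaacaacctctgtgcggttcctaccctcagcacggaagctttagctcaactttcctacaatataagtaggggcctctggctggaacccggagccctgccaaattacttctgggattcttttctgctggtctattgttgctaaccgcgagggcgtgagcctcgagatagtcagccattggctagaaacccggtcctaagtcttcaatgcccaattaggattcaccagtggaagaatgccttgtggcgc

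The *Foxa1* window holds 1 forkhead match, read on the opposite strand, and the *Spdef* window holds 1 response element match. No match lies in the windows shown for *Foxa2* and *Creb3l4*, and the start of *Foxa2* nearest the gene body has 1 GATA match in its window. Single windows of *Gata3* (chr2:9878601-9878850) and *Elf3* (chr1:135258473-135258722) had no match. Of 32851 such windows over all annotated starts, 3.17% held the forkhead motif, 9.99% the GATA motif, 6.91% the ETS motif and 6.47% the response element. No window of a member held more than 1 match, so none overlapped another. A match is a string of letters, not a site shown to be bound.

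*Ly6a*, which encodes Sca-1, read 9358 to 10878 in Sca-1Hi, 3130 to 8505 in Sca-1Lo, 342 to 856 in Sca-1Neg and 150 to 262 in UGE. Summed signals of 12 leukocyte markers were 8002 to 56420 in Sca-1Neg, 2833 to 11780 in Sca-1Lo, 1565 to 3207 in Sca-1Hi and 1925 to 2750 in UGE. Those of 8 basal markers ran the other way, from 2523 to 9156 in Sca-1Neg against 9482 to 29920 in Sca-1Lo, 19150 to 30440 in Sca-1Hi and 22380 to 29540 in UGE. Sca-1Neg replicate 3 stood apart from the other 3 arrays of its group. It had the highest luminal sum (42670, against 15560 to 23850) and the lowest leukocyte sum (8002, against 16920 to 56420). Sca-1Neg replicate 4 had the highest smooth muscle sum (71490, against 24500 to 34510) and fibroblast sum (34740, against 10230 to 14800) of the group, and the lowest nearest correlation with any other array (0.927). Smooth muscle sums were 7751 to 22630 in Sca-1Hi, 9932 to 21660 in Sca-1Lo and 998 to 2778 in UGE. Calls that change without either array are given with and without it. Calls needed an adjusted p (Benjamini-Hochberg, limma) under 0.05 and a log2 change of more than 0.81, the fold minimum of the study's methods. Log2 differences carry their standard error (SE) and means of signals their SD.

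**Figure D1:**
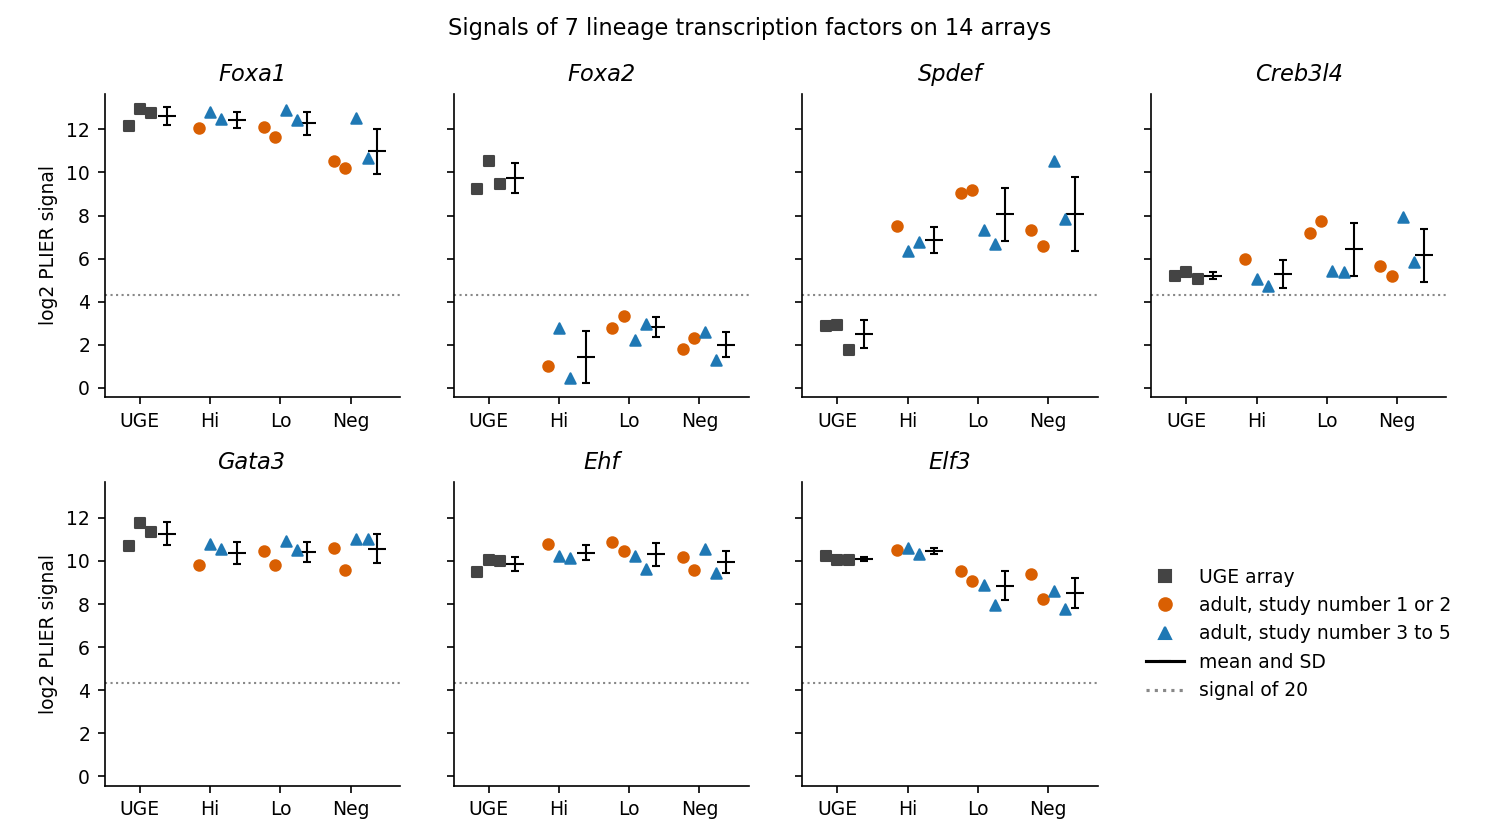
Log2 PLIER signal (y axis) of the 7 genes on every array, by population (x axis); squares are UGE arrays, circles adult arrays that the study numbers 1 or 2, triangles those it numbers 3 to 5, bars the mean with SD over 3 or 4 arrays, and the dotted line a signal of 20. *Foxa2* lies above the line on the 3 UGE arrays only, *Spdef* below it on those arrays only, and *Foxa1* is low on 3 of the 4 Sca-1Neg arrays.

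Against Sca-1Neg, a mixed fraction by the marker sums above, 3 members were higher in UGE (*Foxa1*, *Foxa2* and *Elf3*) and 1 was lower (*Spdef*). Of all 17149 genes, 16.3% were called higher and 12.9% lower in the same comparison. Sca-1Hi against Sca-1Neg gave 1 member higher, *Elf3*, beside 6.11% of all genes, and none lower, beside 5.21%. None was lower in limma at an unadjusted p under 0.05 either, and the methods' t-test called none lower. Sca-1Lo against Sca-1Neg gave no call in limma or by the methods' t-test, and *Foxa1* alone had an unadjusted p under 0.05; of all genes 1.68% were higher and 0.828% lower. Without Sca-1Neg replicate 3 the counts were 3 higher and 1 lower in UGE, 2 higher in Sca-1Hi and 1 higher in Sca-1Lo, with *Foxa1* the gene added in both. Shares of all genes called without that array are not given here, so these counts have no background beside them. These 3 comparisons share the Sca-1Neg arrays.

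Between UGE and the adult stem-enriched cells, *Foxa2* was higher and *Spdef* lower in UGE than in Sca-1Hi, where 15.8% of all genes were higher and 12.0% lower. UGE against Sca-1Lo gave the same pair and *Elf3*, which was higher in UGE, beside 13.4% of genes higher and 12.2% lower. Sca-1Hi against Sca-1Lo gave no member call in limma or by the methods' t-test, and 0.0816% of all genes were called higher and 0.0175% lower. In limma 2 members, *Foxa2* and *Elf3*, had an unadjusted p under 0.05, but *Foxa2* was below 20 on every array of both populations. *Gata3*, *Creb3l4* and *Ehf* by its standing probe set passed the test in none of the 6 comparisons. The comparisons of UGE share the UGE arrays.

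**Figure D2:**
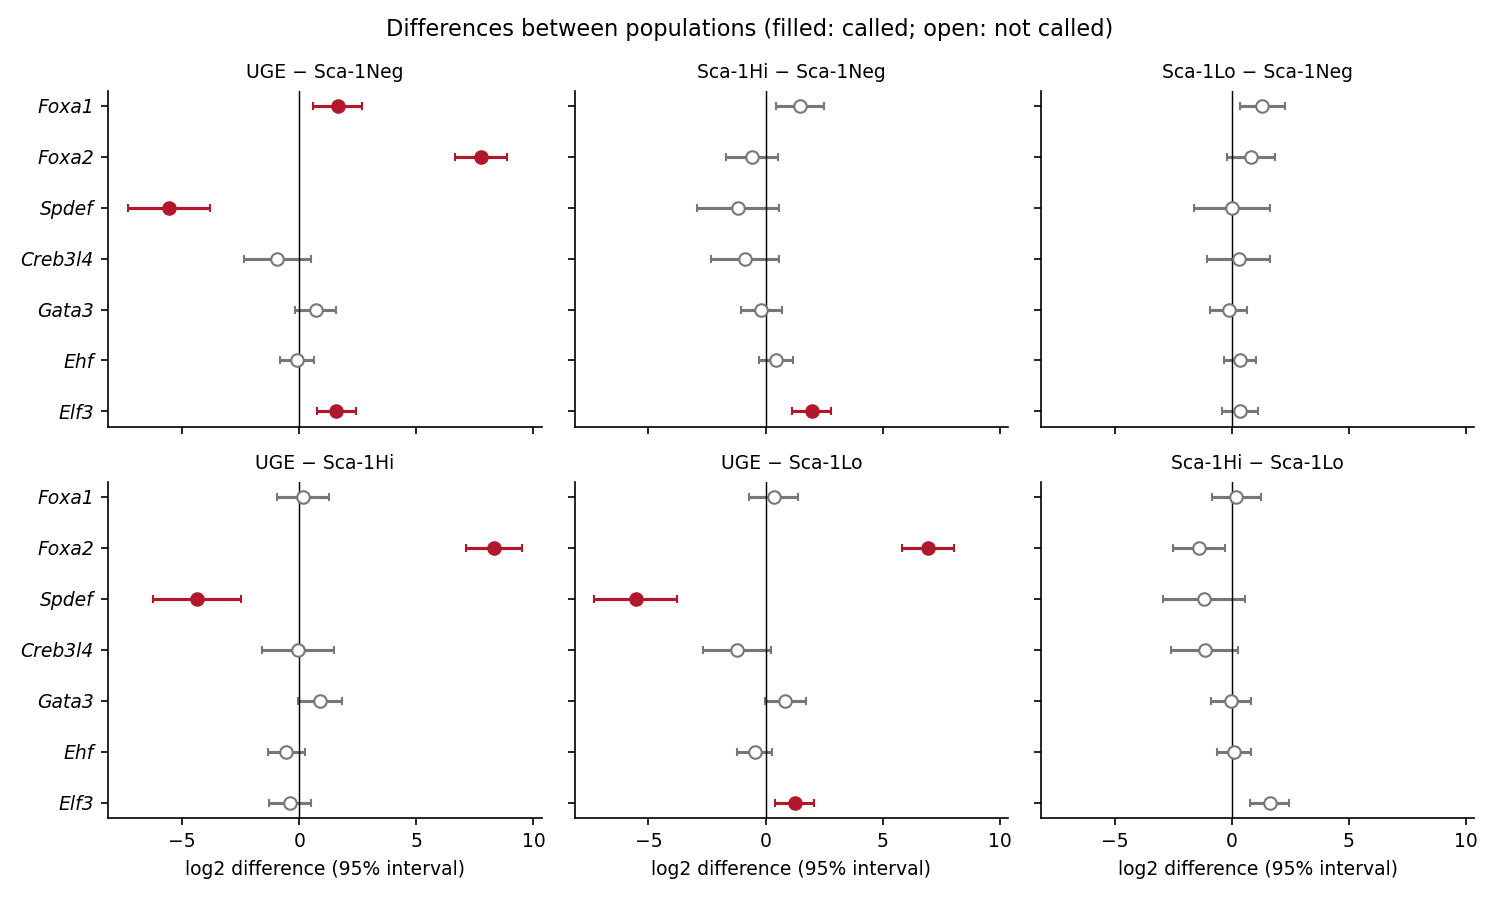
Log2 difference (x axis, with 95% interval) of each member in the 6 comparisons, 1 panel each, filled where called and open where not. Intervals of *Gata3*, *Creb3l4* and *Ehf* include 0 in all panels; differences of *Foxa2* and *Spdef* with UGE use signals below 20 as measured, so their size is no measure of fold.

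*Foxa1*, the forkhead factor of most prostate epithelium, was high in 3 populations and uneven in Sca-1Neg. Its signals were 4585, 7895 and 6862 on the UGE arrays and 4310, 7192 and 5734 on the Sca-1Hi arrays. Sca-1Lo arrays gave 4373, 3256, 7650 and 5514, and Sca-1Neg arrays 1461, 1191, 5970 and 1616. Every UGE, Sca-1Hi and Sca-1Lo array therefore lay above 3 of the 4 Sca-1Neg arrays, and Sca-1Neg replicate 3 lay among them, so the groups overlapped. The order of means was UGE (6447 ± 1694), Sca-1Hi (5745 ± 1441), Sca-1Lo (5198 ± 1877) and Sca-1Neg (2560 ± 2280).

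*Foxa1* was 3.11-fold higher in UGE than in Sca-1Neg (log2 difference 1.63 ± 0.48, adjusted p = 0.0230). Differences of 1.47 ± 0.48 in Sca-1Hi (adjusted p = 0.0632) and 1.29 ± 0.45 in Sca-1Lo (adjusted p = 0.186) were not called. UGE, Sca-1Hi and Sca-1Lo did not part from each other beyond their spread: UGE minus Sca-1Hi was 0.16 (95% interval -0.95 to 1.27) and Sca-1Hi minus Sca-1Lo was 0.18 (95% interval -0.86 to 1.22).

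The *Foxa1* calls depended on single arrays and on the scaling. Without Sca-1Neg replicate 3 the difference became 2.16 in UGE (adjusted p = 0.000508), 1.99 in Sca-1Hi (adjusted p = 0.00225) and 1.81 in Sca-1Lo (adjusted p = 0.00548), so all 3 were called. The UGE call was lost on leaving out UGE replicate 2 (adjusted p = 0.0925), UGE replicate 3 (0.0775), Sca-1Neg replicate 1 (0.0638) or Sca-1Neg replicate 2 (0.0653), and kept without Sca-1Neg replicate 4 (0.0481). With all arrays, *Foxa1* was called higher in Sca-1Hi after quantile normalization (1.26, adjusted p = 0.0376), after centring on the 75th percentile (1.41, 0.0354) and with study numbers as a block (1.32, 0.0306).

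The summed leukocyte signal ran opposite to *Foxa1* in Sca-1Neg, at 32210, 56420, 8002 and 16920 on replicates 1 to 4, with 11 or 12 of the 12 markers above 20. The luminal sums on the same arrays were 23850, 15560, 42670 and 22670. The 11 adult arrays share their groups, so correlations over them are a description. Over these arrays *Foxa1* rose with the basal (r = 0.902), urothelium (0.818), luminal (0.7), endothelial (0.638) and fibroblast (0.376) sums. It fell with the neuroendocrine (-0.899), leukocyte (-0.892), T cell (-0.677) and smooth muscle (-0.664) sums. In these bulk samples fewer cells of a type and less RNA per cell cannot be told apart, and the part of cell makeup in the *Foxa1* difference was not tested.

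*Foxa2*, the forkhead factor of the fetal buds, was read in the embryo only. UGE signals were 604, 1482 and 708. Adult signals were 2.04, 6.90 and 1.37 in Sca-1Hi, 6.84, 10.2, 4.70 and 7.72 in Sca-1Lo, and 3.50, 5.03, 6.00 and 2.45 in Sca-1Neg. All 3 UGE arrays lay above all 11 adult arrays, none of which passed a signal of 20. With adult signals set to 20, *Foxa2* was at least 42.95-fold higher in UGE than in each adult population. On the signals as measured, limma gave adjusted p = 4.49e-07 against Sca-1Neg, 4.98e-07 against Sca-1Hi and 1.02e-06 against Sca-1Lo. No fold is given between adult populations, since all their arrays lie below 20.

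Neuroendocrine cells can also carry *Foxa2*. The 5 measured neuroendocrine markers summed to 705 on UGE replicate 1 and to 102 and 97.2 on replicates 2 and 3, against 92.4 to 210 on adult arrays. None of the 5 was called in UGE against Sca-1Neg. Urothelium markers were higher in UGE, with 4 of 6 called against Sca-1Neg and 3 against each of Sca-1Hi and Sca-1Lo. Of all genes 16.3%, 15.8% and 13.4% were called higher in UGE against Sca-1Neg, Sca-1Hi and Sca-1Lo. Urothelium sums were 7478 to 10650 in UGE, 3448 to 5193 in Sca-1Hi, 2708 to 5607 in Sca-1Lo and 1304 to 5394 in Sca-1Neg. *Upk3a* and *Upk3b*, which encode uroplakins, averaged 1288 and 551 in UGE and at most 34.3 and 16.9 in an adult population. The part of either cell type in the *Foxa2* difference was not tested. *Foxa3*, the remaining FOXA gene, had means of 40.7 ± 11.1 in UGE, 38.0 ± 14.7 in Sca-1Hi, 47.2 ± 7.63 in Sca-1Lo and 50.4 ± 25.2 in Sca-1Neg, and was called in no comparison.

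*Spdef*, the ETS factor of secretory cells, ran opposite to *Foxa2*: it was read on every adult array and on no UGE array. UGE signals were 7.22, 7.56 and 3.36, and Sca-1Hi signals 183, 80.6 and 110. Sca-1Lo arrays gave 527, 579, 159 and 104, and Sca-1Neg arrays 158, 96.7, 1465 and 226. The lowest adult array (80.6) lay far above the highest UGE array (7.56), while the 3 adult populations overlapped. Mean signals stood in the order Sca-1Neg (487 ± 654), Sca-1Lo (342 ± 245), Sca-1Hi (124 ± 52.7) and UGE (6.05 ± 2.33).

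Set against a UGE signal of 20, *Spdef* was at least 13.3-fold lower in UGE than in Sca-1Neg and than in Sca-1Lo, and at least 5.87-fold lower than in Sca-1Hi. On the signals as measured, limma gave adjusted p = 0.000264 against Sca-1Neg, 0.000274 against Sca-1Lo and 0.00252 against Sca-1Hi. Adult neighbours did not differ beyond their spread. Sca-1Hi minus Sca-1Lo was -1.18 ± 0.82 (95% interval -2.94 to 0.58, adjusted p = 0.665), and Sca-1Lo minus Sca-1Neg was 0.00 with a 95% interval of -1.63 to 1.63.

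*Creb3l4*, the secretory bZIP factor, was low on most arrays and high on 3. Its signals were 36.9, 42.0 and 33.0 in UGE and 64.2, 33.4 and 26.9 in Sca-1Hi. In Sca-1Lo they were 147, 217, 42.4 and 41.7, and in Sca-1Neg 49.7, 36.3, 243 and 57.5. Sca-1Lo replicates 1 and 2 and Sca-1Neg replicate 3 were the high arrays, and they were also the 3 highest for *Spdef*. No comparison of *Creb3l4* was called: the widest was UGE minus Sca-1Lo, at -1.22 ± 0.67 (adjusted p = 0.214), and its interval ran from -2.67 to 0.22.

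The Sca-1Lo against Sca-1Neg difference of both genes turned with the study's own sample numbers, whose meaning is not stated. On arrays numbered 1 and 2, *Spdef* was 2.16 (log2) above Sca-1Neg in Sca-1Lo, and on arrays numbered 4 and 5 it was 2.16 below it. *Creb3l4* was 2.07 above on the first and 1.49 below on the second. The test of the difference between the sets gave -4.32 ± 1.03 for *Spdef* and -3.56 ± 0.82 for *Creb3l4*, each with adjusted p = 0.193 in limma. In the fit of that interaction, added after the data were seen, the Sca-1Hi minus Sca-1Neg difference of *Spdef* on arrays numbered 3 to 5 was -2.61 ± 0.73 (adjusted p = 0.0458). There 6050 of 41031 probe sets had an adjusted p under 0.05. A limma fit without the adult arrays numbered 1 and 2 gave the same -2.61 with adjusted p = 0.0761, so it was not called. On arrays numbered 1 and 2, with 1 Sca-1Hi array, the *Spdef* difference was 0.56 ± 0.89 in the interaction fit.

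**Figure D3:**
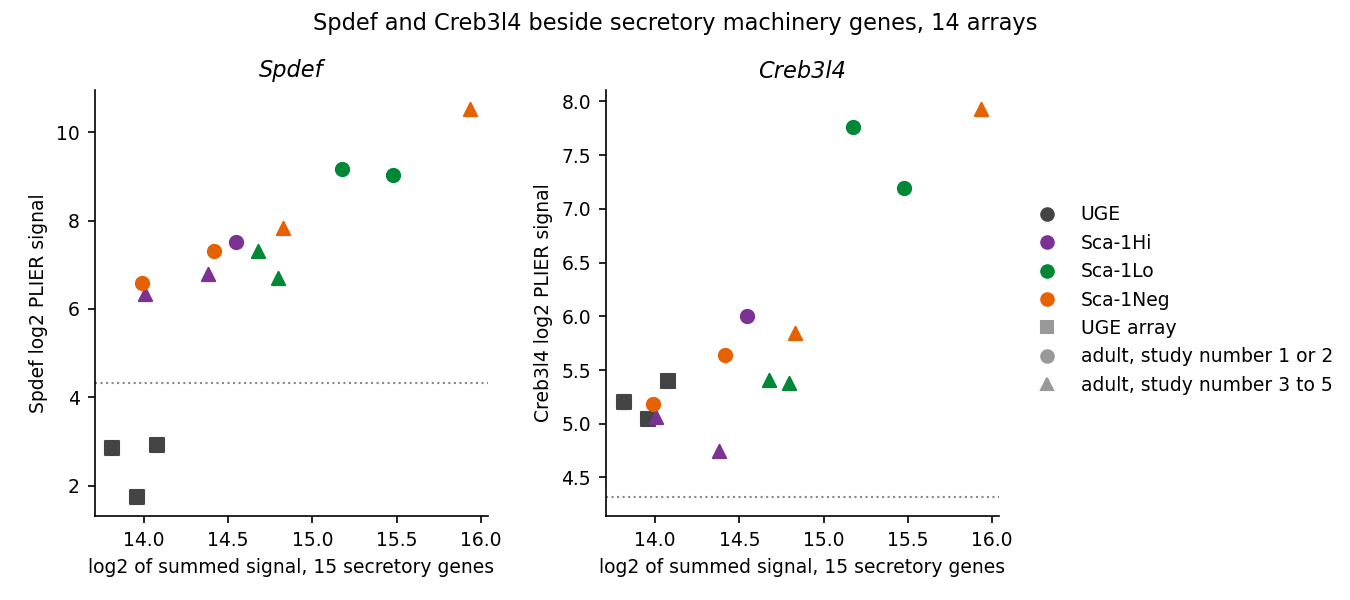
Log2 PLIER signal of *Spdef* (left) and *Creb3l4* (right) against log2 of the summed signal of 15 secretory regulator and machinery genes, 1 point per array; colour is the population, shape the study number, and the dotted line a signal of 20. The 3 arrays highest in both genes, Sca-1Lo replicates 1 and 2 and Sca-1Neg replicate 3, also have the highest sums (36950 to 62650).

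Over the 11 adult arrays *Spdef* and *Creb3l4* correlated at r = 0.960, and over all 14 at 0.710, as a description of arrays that share populations. Summed signals of 15 secretory regulators and machinery genes were 45670, 36950, 26150 and 28400 in Sca-1Lo and 21840, 16230, 62650 and 29080 in Sca-1Neg, with 16430 to 23890 in Sca-1Hi and 14390 to 17260 in UGE. The sums tracked both factors, at r = 0.935 with *Spdef* and 0.880 with *Creb3l4* over adult arrays. The part of luminal cell content in this was not tested. Luminal sums in adults were 21130 to 38700 in Sca-1Lo, 27450 to 35320 in Sca-1Hi and 15560 to 42670 in Sca-1Neg.

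Of those 15 secretory genes, 6 were lower in UGE than in Sca-1Neg and none higher, beside 12.9% and 16.3% of all genes. The median log2 difference was -1.04 where all genes had 0.07. The largest changes were in *Bhlha15*, a bHLH factor of exocrine secretory cells (25.2 in UGE, 1829 in Sca-1Neg), *Agr2*, a disulfide isomerase of mucus cells (137 and 2135), *Tmed3*, a vesicle cargo receptor (989 and 4906), and *Kdelr3*, which retrieves endoplasmic reticulum proteins (164 and 736). UGE was lower for 4 of the 15 against Sca-1Hi and for 7 against Sca-1Lo, beside 12.0% and 12.2% of all genes. Among adult populations none of the 15 was called. *Xbp1*, a regulator of the secretory pathway, was 1793 in UGE against 3525 in Sca-1Hi, 5079 in Sca-1Lo and 3903 in Sca-1Neg, and was lower in UGE in all 3 comparisons.

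Secreted products of the adult gland were low in UGE, as *Spdef* was. Of 13 measured products, 12 were lower in UGE than in Sca-1Neg, 11 than in Sca-1Hi and 12 than in Sca-1Lo, beside 12.9%, 12.0% and 12.2% of all genes. Median differences at a floor of 20 were -8.26, -6.05 and -8.14. The list includes genes named for seminal vesicle secretion, and which gland their RNA came from was not tested. *Pbsn*, the androgen-driven probasin, read 8.59 in UGE and 11490 in Sca-1Neg, and *Svs2*, a seminal vesicle secretory protein, 5.09 and 8006. Sca-1Hi was lower than Sca-1Neg for 4 of the 13, beside 5.21% of all genes, among them *Svs6* (196 and 3370) and *Svs2* (1686 and 8006). *Spdef* in that comparison was at -1.18 ± 0.82 and was not called.

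*Gata3*, the zinc finger factor of luminal fate, was read in every population and called in none of the 6 comparisons. UGE arrays read 1661, 3473 and 2566 and Sca-1Hi arrays 891, 1756 and 1525. Sca-1Lo arrays read 1398, 899, 1962 and 1442, and Sca-1Neg arrays 1570, 776, 2072 and 2097. The UGE mean (2566 ± 906) was highest, followed by Sca-1Neg (1629 ± 618), Sca-1Lo (1425 ± 434) and Sca-1Hi (1391 ± 448), and neighbours in that order overlapped. The difference of UGE and Sca-1Hi was 0.88 ± 0.43 (95% interval -0.05 to 1.81, adjusted p = 0.154). It was called higher in UGE with study numbers as a block (1.01, adjusted p = 0.0292) and with array weights (0.83, adjusted p = 0.0257).

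Among 5 GATA relatives, *Gata4* and *Gata5* were lower in UGE than in each adult population. *Gata4* read 3.76 to 7.36 in UGE, where no array passed 20, and 44.0 to 111 on adult arrays (adjusted p = 8.98e-06 against Sca-1Neg). *Gata5* read 26.2 to 41.5 in UGE and 45.3 to 103 in adults (log2 difference -1.47 ± 0.31 against Sca-1Neg). *Gata1*, *Gata2* and *Gata6* were called in none of the 6 comparisons, and *Gata2* read 2120 ± 647 in UGE and 2612 ± 670 in Sca-1Neg. *Creb3*, *Creb3l1*, *Creb3l2* and *Creb3l3*, the relatives of *Creb3l4*, were not called in any comparison either.

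*Elf3*, an epithelial ETS factor, was high in fetal and adult stem-enriched cells and lower in the other populations. It read 1188, 1054 and 1058 in UGE and 1469, 1552 and 1282 in Sca-1Hi. Sca-1Lo arrays read 732, 542, 480 and 246, and Sca-1Neg arrays 681, 299, 395 and 221. Every UGE array lay above every Sca-1Lo and Sca-1Neg array, and every Sca-1Hi array above every UGE array. The difference of UGE and Sca-1Hi was not called, and the share of all genes that part as fully was not counted. The order was Sca-1Hi (1434 ± 138), UGE (1100 ± 76.3), Sca-1Lo (500.0 ± 201) and Sca-1Neg (399 ± 201).

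*Elf3* was 3.92-fold higher in Sca-1Hi than in Sca-1Neg (log2 difference 1.97 ± 0.39, adjusted p = 0.00632) and 3.01-fold higher in UGE (1.59 ± 0.39, adjusted p = 0.00834). UGE exceeded Sca-1Lo by 2.36-fold (1.24 ± 0.39, adjusted p = 0.0342). Sca-1Hi was 1.62 ± 0.39 above Sca-1Lo with an unadjusted p of 0.000999 and an adjusted p of 0.234 in limma, so this was not called. The arrays of these 2 groups did not overlap. UGE minus Sca-1Hi was -0.38 (95% interval -1.27 to 0.51), and Sca-1Lo minus Sca-1Neg 0.35 (95% interval -0.43 to 1.12).

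Within study numbers 3 to 5 the *Elf3* difference of Sca-1Hi and Sca-1Neg was 2.25 (adjusted p = 0.0213), and within numbers 1 and 2, with 1 Sca-1Hi array, 1.70 (adjusted p = 0.106). The UGE against Sca-1Lo call was lost on leaving out UGE replicate 1, 2 or 3 or Sca-1Lo replicate 3 or 4, with adjusted p from 0.0559 to 0.0897. The 3′ to 5′ signal ratio of *Gapdh*, which grows as the copied RNA gets shorter, was 3.07 to 3.48 (log2) in Sca-1Hi, 1.98 to 3.22 in Sca-1Lo, 1.83 to 2.38 in UGE and 1.66 to 2.75 in Sca-1Neg. The same ratio of b-Actin was 1.59 to 2.77 in Sca-1Hi, 1.72 to 2.27 in Sca-1Lo, 1.54 to 2.09 in UGE and 1.17 to 2.11 in Sca-1Neg, so the groups overlapped by it. Over the 11 adult arrays *Elf3* fell with the T cell (r = -0.689), smooth muscle (-0.640), leukocyte (-0.523), neuroendocrine (-0.380) and fibroblast (-0.293) sums. It rose with the luminal (0.539), urothelium (0.524), endothelial (0.474) and basal (0.403) sums. The part of RNA quality or cell makeup in the *Elf3* difference was not tested.

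*Ehf*, the closest ETS partner of *Elf3* in the set, gave a reading that depended on the probe set. The standing probe set read 708, 1061 and 1025 in UGE and 1742, 1219 and 1135 in Sca-1Hi. In Sca-1Lo it read 1902, 1398, 1197 and 795, and in Sca-1Neg 1155, 755, 1503 and 705. All UGE arrays lay below all Sca-1Hi arrays, with a difference of -0.55 ± 0.37 (adjusted p = 0.299) that was not called, and the other populations overlapped. The share of all genes that part as fully was not counted.

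The second probe set of *Ehf*, in order of mean signal, set UGE below the adult populations and Sca-1Hi above the others. It read 213, 317 and 227 in UGE, 1397, 1889 and 1449 in Sca-1Hi, 1226, 689, 1348 and 805 in Sca-1Lo, and 599, 354, 930 and 433 in Sca-1Neg. Every UGE array lay below every adult array, and every Sca-1Hi array above every other, without a count of how many genes part as fully. UGE was 6.29-fold lower than Sca-1Hi (-2.65 ± 0.37, adjusted p = 0.000172), 3.94-fold lower than Sca-1Lo (adjusted p = 0.00104) and 2.18-fold lower than Sca-1Neg (adjusted p = 0.0278). Sca-1Hi was 2.89-fold higher than Sca-1Neg (1.53 ± 0.35, adjusted p = 0.0127). Sca-1Lo and Sca-1Neg overlapped (adjusted p = 0.229), and Sca-1Hi against Sca-1Lo was not called (adjusted p = 0.544).

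**Figure D4:**
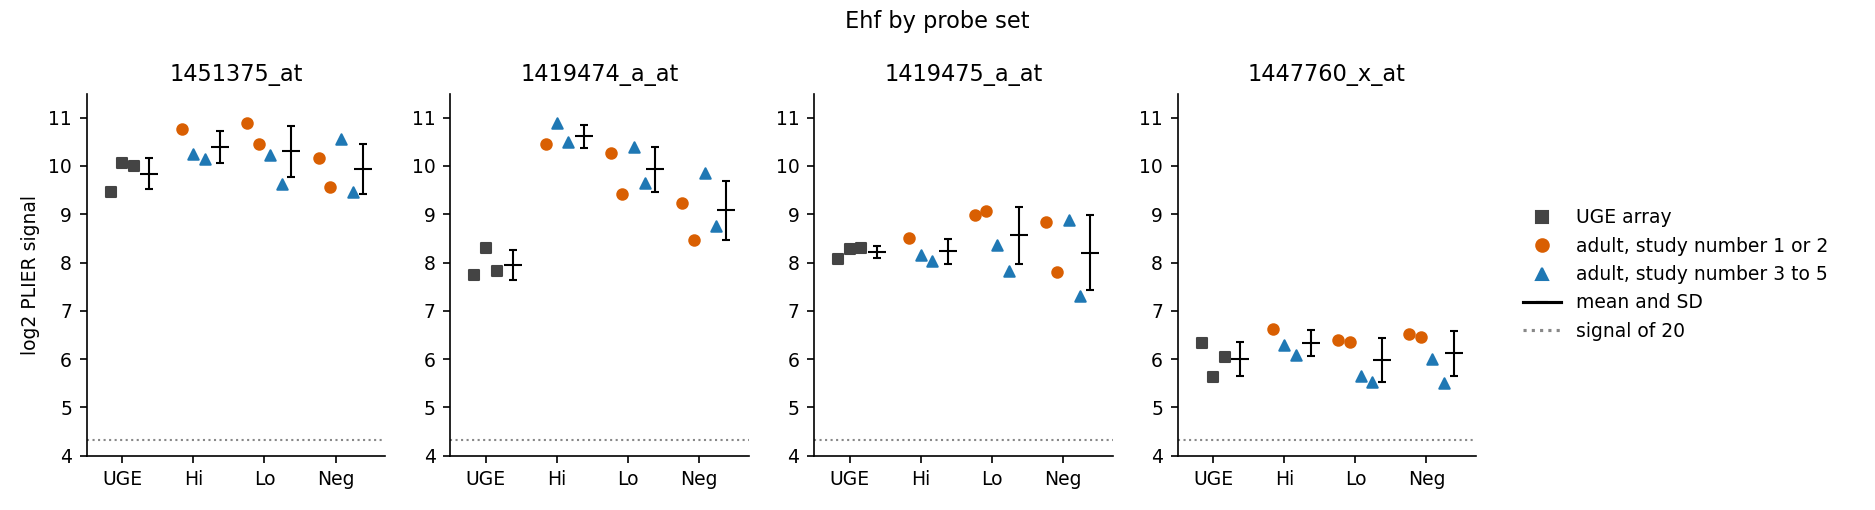
Log2 PLIER signal (y axis) of the 4 *Ehf* probe sets by population (x axis), 1 panel each, with squares for UGE arrays, circles and triangles for adult arrays of study numbers 1 or 2 and 3 to 5, bars for mean and SD and the dotted line at a signal of 20. Panels are titled by probe set and run from the highest mean to the lowest. Only the second has its UGE arrays (213 to 317) below all adult arrays.

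The third and the fourth *Ehf* probe set were not called in any comparison. Group means of the third ran from 298 ± 26.0 in UGE to 400 ± 147 in Sca-1Lo, and those of the fourth from 65.2 ± 15.5 in UGE to 81.2 ± 15.5 in Sca-1Hi. Over the 14 arrays the standing probe set correlated at 0.643 with the second, 0.824 with the third and 0.415 with the fourth. Which transcripts of *Ehf* each probe set reads was not analysed here.

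Among 11 further ETS genes, 2 were higher and 1 lower in UGE than in Sca-1Neg, beside 16.3% and 12.9% of all genes. Against Sca-1Neg 2 were higher and 1 lower in Sca-1Hi, beside 6.11% and 5.21%, and 1 was higher in Sca-1Lo, beside 1.68%. *Elf1* was higher in UGE (1085 ± 103 against 394 ± 131, adjusted p = 0.00501), as was *Etv5* (157 ± 79.0 against 61.1 ± 23.0, adjusted p = 0.0476), and *Erg*, at 1.73 to 21.4 in UGE and 10.6 to 24.4 in Sca-1Neg, was the one called lower (adjusted p = 0.0423). *Elf5*, the ETS factor of mammary luminal progenitors, was lower in Sca-1Hi (116 ± 43.6) than in Sca-1Neg (1445 ± 694) with adjusted p = 0.00252, which is the reverse of *Elf3*. *Elf5* in UGE (1454 ± 658) was higher than in Sca-1Hi and in Sca-1Lo.

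*Erg* and *Fli1*, ETS factors of endothelium, were the higher ones in Sca-1Hi, at 271 ± 83.9 and 249 ± 87.3 against 17.9 ± 5.66 and 57.6 ± 53.0 in Sca-1Neg, and *Erg* was the one higher in Sca-1Lo (122 ± 41.0). The 8 endothelial markers summed to 9970 to 17170 in Sca-1Hi, 4838 to 10500 in Sca-1Lo, 1157 to 3882 in Sca-1Neg and 191 to 706 in UGE, with all 8 above 20 on every Sca-1Hi array. *Elf2*, *Elf4*, *Ets2*, *Etv4* and *Etv6* were called in no comparison, and *Ets1* was lower in UGE (172 ± 113) than in Sca-1Hi (749 ± 128) and Sca-1Lo (614 ± 247).

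**Figure D5:**
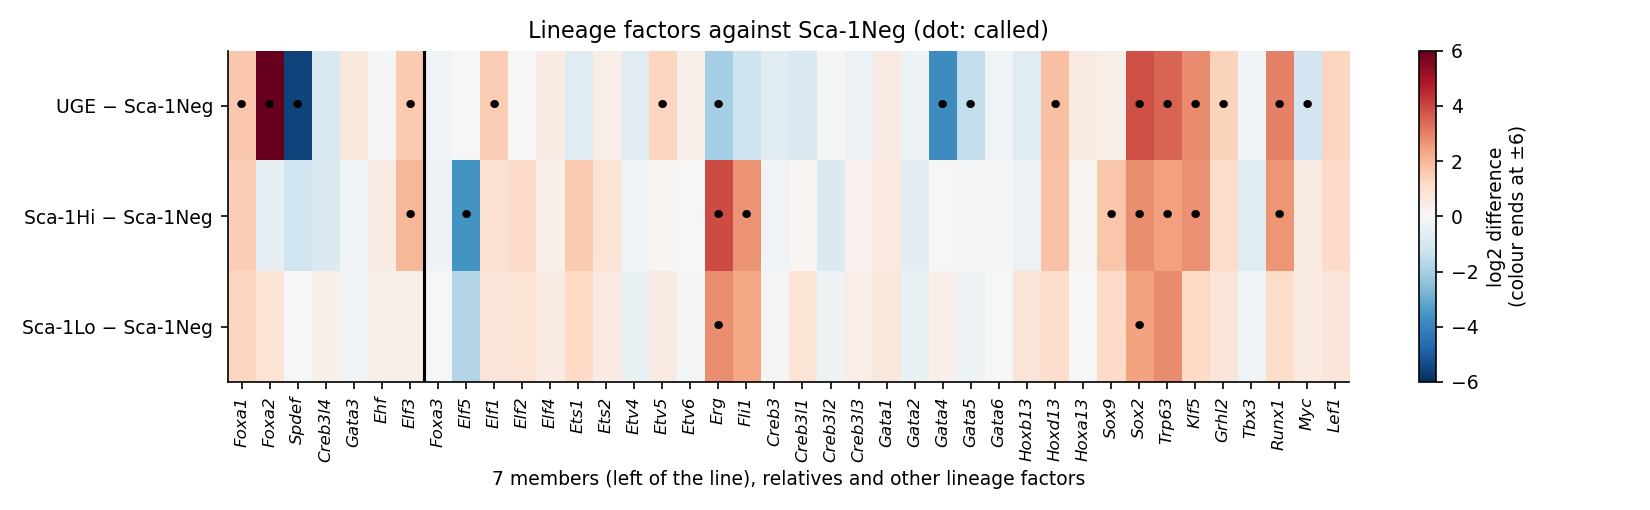
Colour map of the log2 difference of UGE, Sca-1Hi and Sca-1Lo (rows) from Sca-1Neg for the 7 members, left of the line, and their relatives and other lineage factors, right of it; a dot marks a call and colour ends at 6 on either side. *Elf3* is the member called in both UGE and Sca-1Hi, beside *Sox2*, *Trp63*, *Klf5* and *Runx1*, and *Sox2* and *Erg* are called in all 3 rows, *Erg* as lower in UGE and higher in the other 2. The lower call of *Erg* rests on signals near or below 20 (1.73 to 21.4 in UGE, 10.6 to 24.4 in Sca-1Neg).

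Among other lineage factors of the prostate, several were higher in both UGE and Sca-1Hi than in Sca-1Neg, as *Elf3* was. Of 12 measured, 6 were higher and 1 lower in UGE than in Sca-1Neg, 5 higher in Sca-1Hi and 1 higher in Sca-1Lo. Of all genes 16.3% were higher and 12.9% lower in UGE, 6.11% higher in Sca-1Hi and 1.68% higher in Sca-1Lo. Medians of the 12 were 1.33, 1.43 and 0.91 beside 0.07, 0.03 and 0.08 over all genes. *Sox2*, a stem cell factor, was higher in all 3 (2902, 1397 and 1158 against 229). *Trp63*, which encodes the basal factor p63, read 3187 in UGE and 1643 in Sca-1Hi against 399. *Klf5*, an epithelial progenitor factor, and *Runx1* read 3291 and 648 in UGE and 3011 and 546 in Sca-1Hi, against 456 and 80.3. Summed over the 12, these factors followed *Foxa1* at r = 0.980 over the 11 adult arrays and *Spdef* at 0.098.

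The genes most like each member were picked by Pearson correlation of log2 signal over the 14 arrays, so their likeness is no finding. For *Foxa1* they were *Tuft1* (0.990), *Aldh1a7* (0.964) and *Dsp* (0.964), which encodes the desmosomal protein desmoplakin. *Foxa2* was nearest to *Cip2a* (0.973), *St6gal2* (0.971) and *Asprv1* (0.969), and the last read 4006 in UGE and 70.4 to 77.4 as adult means. For *Spdef* they were *Abo* (0.994), *Elapor1* (0.991) and *Slc26a4* (0.989). *Elapor1*, also from secretory cells, read 38.6 in UGE and 1610, 4119 and 5404 in Sca-1Hi, Sca-1Lo and Sca-1Neg.

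*Creb3l4* was most like *Ebp* (0.965), *Pla2g12a* (0.965) and *Pdia4* (0.960), a protein disulfide isomerase of the secretory list. For *Gata3* they were *Ints2* (0.965), *Ptcd3* (0.953) and *Cdk8* (0.953). For *Ehf* they were 2610528J11Rik (0.957), *Rasef* (0.920) and *Tmc4* (0.888), and for *Elf3* *Bend6* (0.911), *Sprr1a* (0.903) and 2810030D12Rik (0.878). *Sprr1a*, a cornified envelope precursor, read 2284 in UGE, 2343 in Sca-1Hi, 459 in Sca-1Lo and 106 in Sca-1Neg. Arrays of a population share that population, so these values describe profiles over 4 populations as much as over arrays.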

How the data were processed

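The study hybridized RNA of 14 samples to Affymetrix MOE430 2.0 arrays after 2 rounds of labelling. The deposited intensity values are linear PLIER signals that the authors made from the scans; MAS5 and PLIER are named in the submitters' processing notes, and the step that normalizes between arrays is not given in the sources used here. The table's 45101 probe sets were joined to genes by the platform annotation, which gives 1 gene for 34945, several for 932 and none for 9160, beside 64 controls; list genes it does not name were not analysed here. *Ly6a* was named through a supplementary table of the study.

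Log2 of the signals was taken as they stand, and the probe sets that passed 20 on 1 array or more were fitted in limma 3.58.1 (R 4.3.3) as 4 group means in 1 fit, with Benjamini-Hochberg adjustment over all of them. A call needs an adjusted p under 0.05 and a log2 change beyond 0.81, the fold minimum of the methods. Changes against a population with every array at or below 20 are given as lower bounds at 20. Where groups are said not to overlap, the share of all genes that part as fully was not counted. With 3 or 4 arrays a group, their number limits the precision, and as the labels do not say that samples came from separate animals, p-values measure only the spread between these samples. Median signals were 64.3 to 81.0 over the arrays.

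Genes named are the 7 members, the 3 genes most correlated with each, their relatives, and up to 4 called genes of each list with the largest change. Members and lists were chosen with earlier results of these data known. Lists were described by counts and medians and not tested. Study numbers are in column names of a supplementary table of the study and were matched to arrays by their values over 1050 probe sets; their meaning is not stated. Protein sequences were not analysed here. Promoter windows are RefSeq's (GRCm38.p6), with an entry for 6 of the 7 members. Alternatives were no filter and a stricter one, the methods' t-test, 16 added to each signal, quantile normalization, a shift of each array to its 75th percentile, only the groups compared, blocks by replicate or study number, either set of study numbers alone, array weights, no fold minimum, the mean of a gene's probe sets, and each array left out. The fit was tested on simulated data. Python 3.11.15, pandas 2.3.3 and matplotlib 3.10.9 made tables and figures.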

Additional observations from a re-analysis of the deposited data

Results flagged for a closer look

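The difference between Sca-1Lo and Sca-1Neg had opposite signs on arrays with low and with high study numbers for *Spdef* and *Creb3l4*, and the test of that difference fell short of the adjusted threshold. Sca-1Lo minus Sca-1Neg on study numbers 3 to 5, less the same on study numbers 1 and 2, was -4.32 for *Spdef* (unadjusted p = 0.00251, adjusted p = 0.193) and -3.56 for *Creb3l4* (unadjusted p = 0.00199, adjusted p = 0.193). Each set holds 2 arrays of either population. In that interaction fit 6368 of the 41031 probe sets tested had an unadjusted p under 0.05 for this difference, and 9 had an adjusted p under 0.05. The array with the highest *Spdef* (1465) and *Creb3l4* (243) signals, Sca-1Neg replicate 3, belongs to the higher numbers. No array of a population of 4 passed Dixon's limit of 0.829 for any member; the nearest was Sca-1Neg replicate 3 for *Foxa1*, at 0.811.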

How the results depend on the processing

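Of 42 member results (7 genes in 6 comparisons) 10 were called. The 3 calls of *Foxa2* and the 3 of *Spdef* were kept in 28 of 28 alternatives. *Foxa1* in UGE against Sca-1Neg was lost in 7 of 28, *Elf3* in 2 of 28 there, in 9 of 28 against Sca-1Lo and in 3 of 30 for Sca-1Hi against Sca-1Neg. Results with no call kept none in most of 896 alternatives, and 40 of these had the other sign. With the interaction fit, which the 896 leave out, 15 gained a call. Among the 15 was *Spdef* in Sca-1Hi against Sca-1Neg on study numbers 3 to 5, from that fit. None of the 10 calls changed sign.

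Members called higher in UGE against Sca-1Neg numbered 1 by the methods' t-test in place of 3. In Sca-1Hi against Sca-1Neg there were 2 in place of 1 (*Foxa1* beside *Elf3*) after centring on the 75th percentile, quantile normalization, the study number block or array weights, and 0 by the t-test or on study numbers 1 and 2. In Sca-1Lo against Sca-1Neg 2 in place of 0 were higher on study numbers 1 and 2 (*Spdef* and *Creb3l4*) and 1 with array weights (*Foxa1*). In UGE against Sca-1Hi 2 in place of 1 were higher with the study number block or array weights (*Gata3* added), and 2 in place of 1 lower with the mean of a gene's probe sets (*Ehf* added). In UGE against Sca-1Lo 1 in place of 2 was higher by the t-test, after quantile normalization, after centring on the 75th percentile and on study numbers 1 and 2, where 2 in place of 1 were lower (*Creb3l4* added). In Sca-1Hi against Sca-1Lo 1 in place of 0 was higher with array weights (*Elf3*). Their causes were not tested, and shares of all genes called under the alternatives are not given here. Leaving out each array in turn gave 2 to 3 higher in UGE against Sca-1Neg, 1 to 2 in Sca-1Hi against Sca-1Neg, 0 to 1 in Sca-1Lo against Sca-1Neg, where the added gene was *Foxa1* without Sca-1Neg replicate 3, and 1 to 2 in UGE against Sca-1Lo.

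With a block for the replicate number that the labels give, 3 members were called higher and 1 lower in UGE against Sca-1Neg. No call of a member changed in any comparison. Samples of the same replicate number correlated from -0.466 to 0.584 in their deviations, so the replicate numbers were not taken to pair the samples. That range takes in UGE and samples of unlike study numbers. No fit was paired by study number over all adult populations, and whether samples of one number share a preparation is not stated. Sca-1Hi replicates 1 and 3 have the study numbers of the Sca-1Lo and Sca-1Neg samples of those replicate numbers. They correlated at 0.547 and 0.34 with Sca-1Lo, and at 0.372 and -0.116 with Sca-1Neg. Between Sca-1Lo and Sca-1Neg, where equal replicate numbers also mean equal study numbers, these correlations were 0.162, 0.387, 0.083 and 0.584, not all above 0.1. *Foxa1* and *Elf3* were higher in Sca-1Lo in 4 of these 4 pairs, *Elf3* at 732 against 681 on replicate 1. Neither was called in limma (adjusted p = 0.186 and 0.768), and the share of all genes higher in every pair was not counted.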
